A study of Homo sapiens with 6 samples.

Results

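The genes described here are 10 targets of MLL fusion proteins: the homeobox genes HOXA5, HOXA7, HOXA9 and HOXA10, the cofactor genes MEIS1 and PBX3, the transcription factor genes MEF2C and MYB, the kinase gene CDK6, and JMJD1C. They were chosen by symbol, and all 10 were found among the 26364 genes of the table. MV4-11, a long-established line of human acute myeloid leukaemia cells, carries an MLL-AF4 fusion, now written KMT2A-AFF1, and an internal tandem duplication of the receptor gene FLT3. Both lesions are shared by every library. The 3 control libraries came from MV4-11 cells given the vehicle DMSO, and the 3 treated libraries from MV4-11 cells given 22d, known as an inhibitor of the deacetylase HDAC8, at 10 nM for 18 h. All libraries are of 1 cell line, and no label says that they are separate cultures, so the p-values here reflect only how these samples scatter, which may be technical.

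The MLL protein, encoded by KMT2A, is a histone methyltransferase that keeps HOX genes active during development. When its N-terminal part is fused to a partner such as AF4, the fusion recruits transcription elongation factors and the methyltransferase DOT1L to MLL target genes and holds them on. HOXA9 and its DNA-binding cofactors of the MEIS and PBX families are the best known of these targets, and they maintain a stem-cell-like program in myeloid leukaemia.

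The recovered depth lay between 19995430 and 23749257 reads per library. Of 15 myeloid markers 14 were tested, and 7 of them rose and 3 fell with 22d. Over all genes tested, 28.5% rose and 29.6% fell. PTPRC, the gene of the leukocyte antigen CD45, rose by 1.63 on the log2 scale and MPO, the gene of the granule enzyme myeloperoxidase, fell by 2.59. Summed myeloid markers stood at 92868 to 114378 normalized counts with DMSO and 70995 to 82059 with 22d, with no overlap. Such sums weigh the most abundant genes most, and the groups did not overlap for 65.4% of single genes tested. The myeloid surface antigen gene CD33 held 2064, 2089 and 2161 normalized counts in the DMSO libraries against 1962, 2399 and 2426 in those with 22d. The T cell gene CD3D, the B cell gene MS4A1 and the erythroid gene HBG1 were at 0 in all 6 libraries, which allows up to 3 reads in each. Most listed markers of these cells had some reads. Those at 0 throughout were 2 of 8 T and NK cell, 1 of 6 B cell and 3 of 9 erythroid and megakaryocyte markers. Summed T and NK cell markers stood at 604 to 900.1 normalized counts with DMSO and 1146 to 1206 with 22d, where 1 of 2 tested rose, the granule gene NKG7. Genes listed as epithelial and stromal markers summed to 543 to 681 with DMSO and 971 to 1078 with 22d. Of 4 tested, 2 rose: the keratin gene KRT8 and the adhesion gene PECAM1, which is not specific to those cells. Summed B cell markers (160.2 to 203 and 112 to 159) and erythroid and megakaryocyte markers (287 to 328 and 275 to 391) held no called gene. The part of these markers in the results was not tested. In bulk RNA, fewer cells expressing a gene and less RNA per cell cannot be told apart. Along the first principal component, with 80.5% of the variance, the library 22d replicate 1 was the most distant from the DMSO group.

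Most of the program moved little beside the rest of the transcriptome. A gene was tested if its normalized counts averaged 10 or more over the 6 libraries, and it was called at a limma adjusted p under 0.05 over all 13297 genes tested. Where a gene is said to rise or fall by a value, that value is its log2 fold change. Of the 10 members 8 were tested, and HOXA5 and HOXA7 were too low. JMJD1C, PBX3 and MEF2C rose, 3 of 8, against 28.5% of all genes tested. HOXA9, HOXA10, MEIS1, MYB and CDK6 were not called. No member was called lower by limma (0 of 8), against 29.6% of all genes tested. None was called lower by edgeR's quasi-likelihood test (0 of 8), which called 7723 of all genes tested, 51.3% of them higher. None fell at an unadjusted limma p under 0.05 (0 of 8), a threshold for which no share of all genes was computed. Both counts come from the same libraries and are not separate evidence. Over all genes tested 58.0% were called in either direction. Counts of called genes in each list below are to be read beside these shares. Those given with scaling by library totals are to be read beside the 5278 genes that rose and 2766 that fell under it. Quantile normalization called 7591 of all genes tested, 52.0% of them higher. The lists were written with earlier results of these data known. The edgeR test called 3 of the 8, against 58.1% of all genes tested, while 2 of the 8 passed 0.05 in the authors' deposited table, against 46.3% of the genes it gives an adjusted p for. Of the 8 members, 1 changed at least 1.5-fold, against 42.3% of all genes tested. Their median log2 fold change was 0.24 against 0.01 for all genes tested, and their median size of change, regardless of sign, was 0.26 against 0.49.

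**Figure D1:**
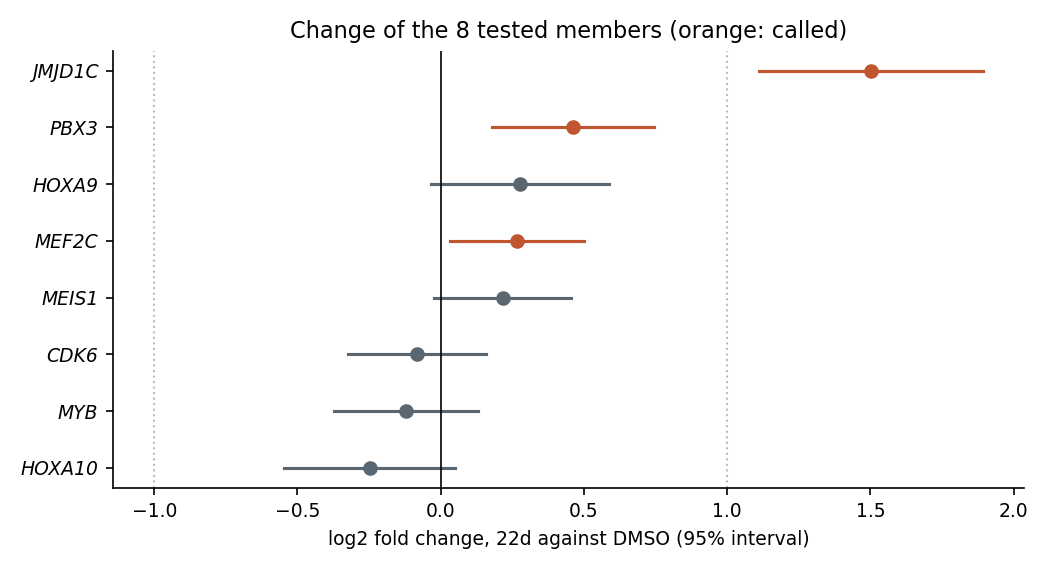
The log2 fold change of each tested member on the log2(normalized count + 1) scale (points) with its 95% limma interval (lines), where orange marks the 3 called genes and dotted lines mark a log2 change of 1 in either direction. JMJD1C at 1.5 lies beyond the dotted line, and the other 7 members lie between -0.25 and 0.46.

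HOXA9 (GRCh38, chromosome 7, 27162435 to 27175180, minus strand) encodes the homeodomain factor most closely tied to this leukaemia. Its values were 401, 588 and 489 normalized counts in the DMSO libraries against 599, 570.4 and 600.2 in those with 22d. DMSO replicate 2 lay within the range of the treated libraries, so the groups overlapped, and the treated libraries were closer together than the DMSO ones. This gave a log2 fold change of 0.28 (SE 0.14, 95% interval -0.03 to 0.59, limma adjusted p = 0.12). Without DMSO replicate 2 it was 0.41 (limma adjusted p = 0.028), and without DMSO replicate 1 it was 0.14 (adjusted p = 0.46). As a ratio the interval ran from 0.976 to 1.5.

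HOXA10 (chromosome 7, 27170591 to 27180261, minus strand), its neighbour in the cluster, encodes another homeodomain factor of blood progenitors. It held 1209, 1603 and 1139 normalized counts in the DMSO libraries against 1009.9, 1073 and 1214 in those with 22d. The groups overlapped, with DMSO replicate 2 the highest library of all. On the log2 scale the change was -0.25 (SE 0.14, 95% interval -0.55 to 0.05, limma adjusted p = 0.14). Without DMSO replicate 2 it was -0.098, under quantile normalization -0.12 and with scaling by library totals -0.028. With 1 library left out it ranged from -0.345 to -0.098, and it was called in none of the 16 alternatives run.

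The ratio of HOXA9 to HOXA10 reads is taken within a library and needs no scaling between libraries. It was 0.331, 0.367 and 0.430 with DMSO and 0.593, 0.531 and 0.494 with 22d, so every treated library lay above every DMSO library. The mean ratio was 0.376 ± 0.0497 with DMSO and 0.540 ± 0.050 under treatment (SD, n = 3 each). An exact two-sided permutation test of the log2 ratio gave p = 0.10, the smallest value that 3 against 3 libraries allow. Of 3 such ratios computed, each was chosen after its values were seen and each had a p of 0.10 by the exact test, also after Benjamini-Hochberg adjustment.

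HOXA5 (chromosome 7, 27141052 to 27143668, minus strand) and HOXA7 (chromosome 7, 27153716 to 27157936, minus strand), homeodomain genes of the same cluster, had hardly any reads. HOXA5 had 0, 0 and 4 reads in the DMSO libraries and 2, 0 and 4 in the libraries with 22d. HOXA7 had 1 read in DMSO replicate 3 and 0 in the other 5 libraries. A count of 0 allows up to 3 reads, or 2.52 to 3.41 normalized counts by library, which covers counting error only, and no fold is given for either gene. In the GENCODE 29 annotation 62.5% of the exon bases of HOXA7 lie under exons of HOXA-AS3, a noncoding gene on the opposite strand, as do 39.3% of those of HOXA6, while HOXA5 shares none. HOXA6 and HOXA-AS3 are at 0 in every library. Reads that fall on 2 genes can be left uncounted, and whether this lowered HOXA7 was not tested.

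Per kb of merged exon, HOXA10 and HOXA9 stood highest of the cluster genes shown, HOXA11 next, and HOXA2 to HOXA7 and HOXA13 lay near 0. HOXA11, a homeodomain gene of limb and uterus, held 140.0, 91.0 and 126 normalized counts in the DMSO libraries against 96.8, 116 and 117 in those with 22d, overlapping groups (limma adjusted p = 0.69). HOXA9 and HOXA10 together made up 70.8% of the normalized counts of all 39 HOX genes. HOXA10-HOXA9, a read-through gene annotated over both, is at 0 in every library. The levels of HOXA9 and HOXA10 are uncertain for this reason, and its effect was not tested.

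**Figure D2:**
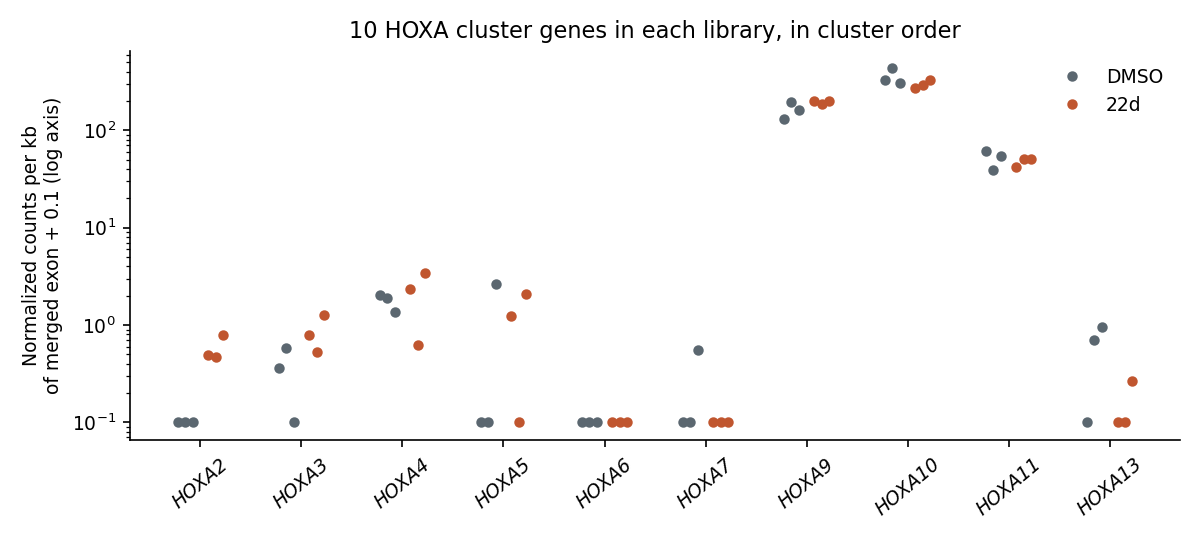
Normalized counts per kb of merged exon, plus 0.1 and on a log axis, of 10 HOXA genes in cluster order, with 1 point per library (grey for DMSO, orange for 22d). HOXA9 and HOXA10 lie above 100 in every library, while HOXA6 lies at 0 in all 6 and HOXA7 at 0 in 5 and HOXA5 in 3.

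Of the 28 HOXB, HOXC and HOXD genes 7 were tested, of which 1 rose, 1 fell and 5 were not called. HOXB3, a homeodomain gene of early blood progenitors, held 88.8, 77.6 and 69.1 normalized counts in the DMSO libraries against 267, 169 and 204 in those with 22d (log2 fold change 1.41, SE 0.20, limma adjusted p = 5.7e-05). Its treated libraries all lay above the DMSO libraries. HOXC6, of the HOXC cluster, fell by 0.60 (limma adjusted p = 0.019), a call lost without DMSO replicate 2 (adjusted p = 0.059), without 22d replicate 1 (0.058) and when libraries were scaled by their totals (0.13). Under that scaling 3 of the 7 rose and 0 fell. No HOXD gene reached the filter (0 of 9). For 9 of the 39 HOX genes the only reads were in 22d replicate 3, a library that held the only reads of 1827 genes, against 98 to 172 for each other library.

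Of 6 tested noncoding, antisense and read-through genes beside the members, 2 rose, 0 fell and 4 were not called. HOTAIRM1, a myeloid noncoding RNA of the HOXA cluster, held 43.2, 85.8 and 101 normalized counts in the DMSO libraries against 221, 151 and 192 in those with 22d (log2 fold change 1.35, SE 0.28, limma adjusted p = 0.0010), with no overlap between the groups. HOXA10-AS, which lies opposite HOXA10 and HOXA9, held 93.3, 127 and 115 normalized counts in the DMSO libraries against 179.9, 134 and 173 in those with 22d (log2 fold change 0.53, limma adjusted p = 0.027). That call was lost under quantile normalization (adjusted p = 0.13) and without DMSO replicate 1 (0.11), 22d replicate 1 (0.074) or 22d replicate 3 (0.088). HOXA10 and HOXA9 cover 62.3% of its exon bases, and the strand setting of the counting was not given in the sources used here. Reads of these genes may therefore not be told apart.

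MEIS1 (chromosome 2, 66433452 to 66573869, plus strand) encodes a homeodomain cofactor that binds DNA with HOXA9. It held 1216, 1150.1 and 1121 normalized counts in the DMSO libraries against 1504, 1311 and 1247 in those with 22d. Each treated library lay above each DMSO library, one of 4 members of 8 whose groups did not overlap, against 65.4% of all genes tested. In all 4 the treated libraries were the higher, against 32.1% of all genes tested, and in 0 the lower, against 33.3%. Its log2 fold change was 0.22 (SE 0.11, 95% interval -0.02 to 0.46) and was not called (limma adjusted p = 0.11). It was called under quantile normalization (0.34, adjusted p = 0.015) and with scaling by library totals (0.44, adjusted p = 0.0051), and without 22d replicate 1 it was 0.14 (adjusted p = 0.28). HOXA9 was also called with scaling by library totals (0.50, adjusted p = 0.0097), which moved the median of all genes tested to 0.22.

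PBX3 (chromosome 9, 125747345 to 125967377, plus strand), which encodes a cofactor that binds DNA in complexes with HOX and MEIS proteins, rose. It held 1383, 1398 and 1448 normalized counts in the DMSO libraries against 2419.5, 1706 and 1773 in those with 22d. The DMSO libraries were close together and 22d replicate 1 stood above the other treated libraries. The log2 fold change was 0.46 (SE 0.13, 95% interval 0.18 to 0.75, limma adjusted p = 0.0088). It was called under every alternative run, and without 22d replicate 1 it was 0.30 (limma adjusted p = 0.022).

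Of 8 other tested genes of this cofactor family and its partners, 3 rose, 3 fell and 2 were not called. MEIS3, a relative of MEIS1, held 10.2, 5.17 and 21.9 normalized counts in the DMSO libraries against 67.5, 69.4 and 81.4 in those with 22d (log2 fold change 2.65, SE 0.40, limma adjusted p = 0.00011), from 5 to 20 reads per DMSO library. PBXIP1, which encodes a PBX-binding protein, rose by 0.91 and TGIF1, a repressor gene of the family, by 0.83. MEIS2 fell by 0.81 and PKNOX1, another MEIS relative, by 0.71.

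MEF2C (chromosome 5, 88717117 to 88904257, minus strand) encodes a MADS-box transcription factor linked to MLL-rearranged leukaemia. It held 1936, 1847 and 2130.3 normalized counts in the DMSO libraries against 2610.2, 2301 and 2212 in those with 22d, with no overlap between the groups. The log2 fold change of 0.27 (SE 0.11, 95% interval 0.03 to 0.50) passed by a narrow margin (limma adjusted p = 0.049). It did not pass without the filter on low values (adjusted p = 0.062), with a replicate block (0.094), in the authors' deposited table (0.055), or with any 1 library left out except DMSO replicate 3 (0.054 to 0.14).

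MYB (chromosome 6, 135181315 to 135219173, plus strand), a progenitor transcription factor gene, had the highest level per kb of the members. It held 7538, 5950.1 and 6954 normalized counts in the DMSO libraries against 6731, 6430.3 and 5603 in those with 22d, overlapping groups. On the log2 scale the change was -0.12 (SE 0.12, 95% interval -0.37 to 0.13, limma adjusted p = 0.39). It was 0.19 under quantile normalization and 0.10 with scaling by library totals, neither called, and ranged from -0.215 to -0.0438 with 1 library left out, closest to 0 without 22d replicate 3.

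Of 14 tested genes reported as MYB targets, 5 rose, 7 fell and 2 were not called, against 28.5% rising and 29.6% falling over all genes tested. Their median log2 fold change was -0.54 against 0.01 for all genes tested. The granule enzyme genes MPO and ELANE fell by 2.59 and 1.34 (limma adjusted p = 3.5e-07 and 1.0e-06). MYC, a growth-promoting transcription factor gene, fell by 0.83. ADA, the adenosine deaminase gene, rose by 0.93 and KIT, a progenitor receptor gene, by 0.83.

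Among 13 tested relatives of MYB, MEF2C and JMJD1C, 6 rose, 5 fell and 2 were not called. MYBL2, the MYB relative that drives late cell cycle genes, held 9577, 8819 and 7288 normalized counts in the DMSO libraries against 831, 1176 and 1137 in those with 22d (log2 fold change -3.04, SE 0.14, limma adjusted p = 1.7e-08). Every treated library was far below every DMSO library. Of these relatives 2 fell under quantile normalization and 3 with scaling by library totals.

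CDK6 (chromosome 7, 92604921 to 92836594, minus strand) encodes a cyclin D-dependent kinase of the cell cycle. It held 5952, 5308 and 6639 normalized counts in the DMSO libraries against 5150.0, 6042 and 5665 in those with 22d, overlapping groups. Its log2 fold change was -0.08 (SE 0.11, 95% interval -0.32 to 0.16, limma adjusted p = 0.54). It was 0.22 under quantile normalization and 0.14 with scaling by library totals, neither called, and with 1 library left out it ranged from -0.165 to -0.003.

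Of 12 tested partners and inhibitors of CDK6, 3 rose, 5 fell and 4 were not called. CDK4, the sister kinase gene, held 6697, 6231 and 5510.1 normalized counts in the DMSO libraries against 1856, 1956 and 1943 in those with 22d (log2 fold change -1.68, limma adjusted p = 8.9e-08), and 43.2% of its exon bases lie opposite TSPAN31. CCND3, the gene of a D-type cyclin that binds both kinases, fell by 0.78. The inhibitor gene CDKN1A rose by 2.29 and RB1, which encodes a substrate of both kinases, by 0.51. CDKN2C, the gene of another inhibitor of both kinases, given below among the MLL fusion targets, fell by 1.37.

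**Figure D3:**
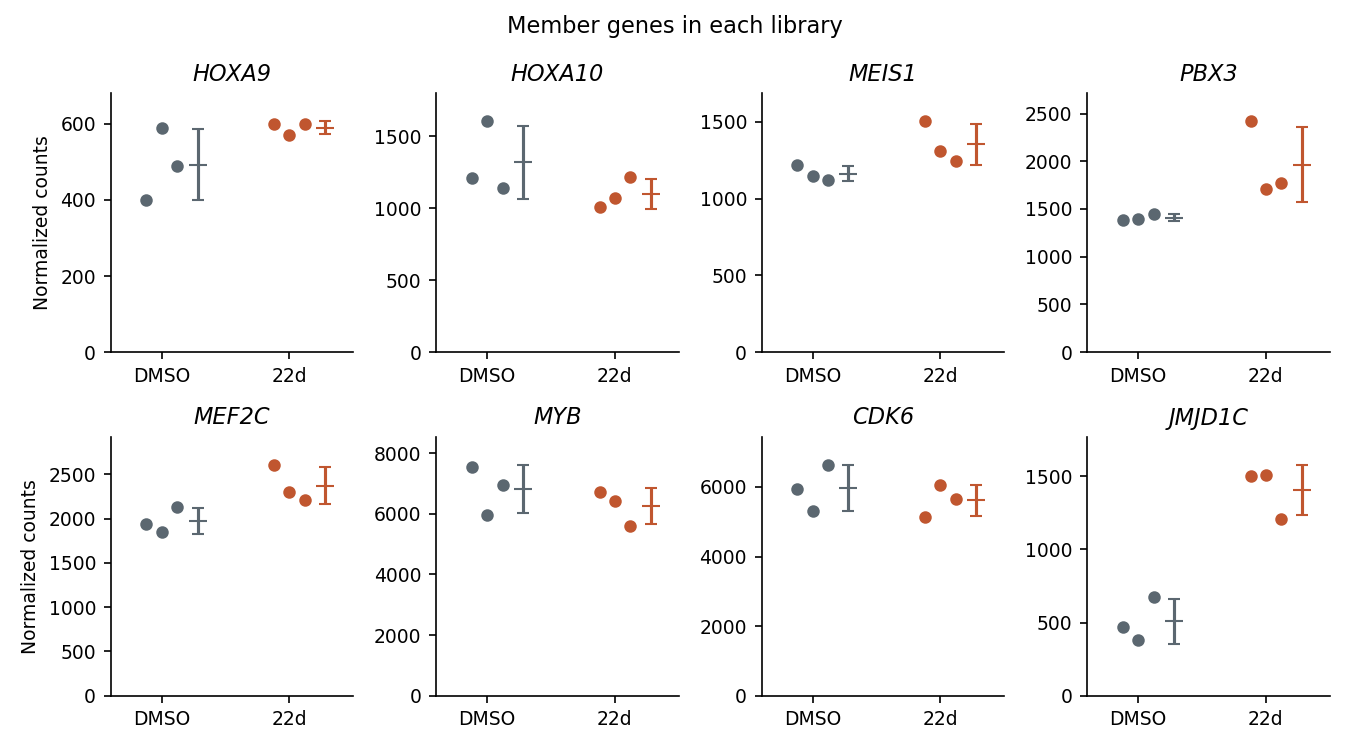
Normalized counts of the 8 tested members in each library (points, grey for DMSO and orange for 22d), with the mean ± SD of the 3 libraries beside them and axes starting at 0. The groups lie far apart for JMJD1C, are separate for PBX3, MEF2C and MEIS1, and overlap for HOXA9, HOXA10, MYB and CDK6.

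JMJD1C, a Jumonji-domain gene of the KDM3 histone demethylase family, changed most of the members. It held 470.0, 379 and 678 normalized counts in the DMSO libraries against 1502, 1512 and 1208 in those with 22d. The lowest treated library was well above DMSO replicate 3, the highest control. The means were 509 ± 153 and 1407 ± 173 (SD, n = 3 each), a ratio of 2.77. The log2 fold change was 1.5 (SE 0.18, 95% interval 1.11 to 1.89, limma adjusted p = 1.6e-05). In size it exceeded that of 92.0% of all genes tested. It lay between 1.31 and 1.73 under the alternatives run and was called in each, and in the authors' deposited table it was 1.43.

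Among its relatives, KDM3A held 777, 685 and 772 normalized counts in the DMSO libraries against 2272, 1529.6 and 1443 in those with 22d (log2 fold change 1.20, SE 0.16, limma adjusted p = 2.8e-05). KDM3B fell by 0.38, which was not called under quantile normalization (limma adjusted p = 0.59) and with scaling by library totals (0.18).

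JMJD1C (GRCh38, chromosome 10, 63167221 to 63521850, minus strand) has several annotated starts, and the noncoding gene JMJD1C-AS1 (chromosome 10, 63465229 to 63466563, plus strand) lies across one of them. JMJD1C-AS1 held 92.2, 84.8 and 85.6 normalized counts in the DMSO libraries against 139, 65.7 and 91.5 in those with 22d, overlapping groups (log2 fold change 0.11, limma adjusted p = 0.73). The ratio of JMJD1C to JMJD1C-AS1 reads was 5.10, 4.46 and 7.92 with DMSO and 10.8, 23.0 and 13.2 with 22d (exact two-sided permutation p = 0.10, the smallest possible). Every treated library thus lay above every DMSO library. The pair was chosen after its values were seen, with JMJD1C called and JMJD1C-AS1 not called. The ratio therefore largely restates the rise of JMJD1C and is not separate evidence. Part of the exon bases of JMJD1C-AS1 lie opposite exons of JMJD1C, and the strand setting of the counting was not given. Reads of these genes may therefore not be told apart, and the counts do not say which JMJD1C start was used.

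The 250 bases before the annotated start are shown for a pair of JMJD1C starts, since that gene rose most, for PBX3, which rose less, and for HOXA9, which was not called. They run 5′ to 3′ on the gene's strand and come from RefSeq, build GRCh38.p14. Capitals mark matches, on either strand, to the MEIS motif TGACAG, the HOX-PBX motif TGATTNAT or the E-box CACGTG.
JMJD1C, outer start, chr10:63521891-63522140, minus strand: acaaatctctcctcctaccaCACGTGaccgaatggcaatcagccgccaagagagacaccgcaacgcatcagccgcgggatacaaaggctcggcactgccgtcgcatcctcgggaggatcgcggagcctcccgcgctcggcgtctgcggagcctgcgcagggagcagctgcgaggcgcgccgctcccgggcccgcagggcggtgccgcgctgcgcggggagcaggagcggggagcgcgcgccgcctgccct
JMJD1C, start within JMJD1C-AS1, chr10:63465978-63466227, minus strand: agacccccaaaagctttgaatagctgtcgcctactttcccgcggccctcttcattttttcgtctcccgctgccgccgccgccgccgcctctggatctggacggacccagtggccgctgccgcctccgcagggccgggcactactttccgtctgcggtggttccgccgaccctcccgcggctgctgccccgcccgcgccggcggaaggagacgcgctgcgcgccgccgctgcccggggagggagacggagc
PBX3, chr9:125747933-125748182, plus strand: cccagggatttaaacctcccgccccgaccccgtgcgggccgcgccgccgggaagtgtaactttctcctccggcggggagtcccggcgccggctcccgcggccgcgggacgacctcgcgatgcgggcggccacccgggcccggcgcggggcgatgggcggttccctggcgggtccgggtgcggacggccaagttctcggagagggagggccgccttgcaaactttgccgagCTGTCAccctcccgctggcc
HOXA9, chr7:27165538-27165787, minus strand: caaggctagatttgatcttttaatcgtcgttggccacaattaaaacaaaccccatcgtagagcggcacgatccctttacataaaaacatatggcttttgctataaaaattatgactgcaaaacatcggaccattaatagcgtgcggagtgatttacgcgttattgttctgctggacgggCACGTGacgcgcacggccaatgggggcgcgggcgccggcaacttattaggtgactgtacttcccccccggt

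The outer JMJD1C start and the HOXA9 start each held 1 E-box, and the PBX3 start held 1 MEIS motif. Promoters were listed for 9 of the 10 members, 19 in all. An E-box was in 2 of the 19, against 6.34% of all 35116 promoters of that length. The MEIS motif was in 4 of the 19, against 13.0%, but 3 of these 4 are starts of MEF2C, so that 2 of 9 genes held it. The HOX-PBX motif was in 0 of the 19, against 2.48%. Both JMJD1C windows shown were 72.0% G and C, and the window of its innermost start was 44.0% and held no E-box. Of the others shown, the PBX3 window was 75.6% and the HOXA9 window 48.8%, against a median of 58.0% over all promoters. A match is a string of letters and not a measured binding site.

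Levels were compared between members as normalized counts per kb of merged GENCODE 29 exon. With DMSO the order was MYB at 1240.5 ± 146, CDK6 at 487 ± 54.3, HOXA10 at 355 ± 67.6, PBX3 at 311 ± 7.53, MEF2C at 168 ± 12.3, HOXA9 at 163 ± 31.0, MEIS1 at 106 ± 4.47 and JMJD1C at 46.0 ± 13.9 (SD, n = 3 each). The library ranges of HOXA10 and PBX3 overlapped, as did those of MEF2C and HOXA9, and the other tested neighbours in that order did not. With 22d, PBX3 at 434 ± 87.0 came before HOXA10 at 296 ± 28.2, and JMJD1C at 127 ± 15.6 beside MEIS1 at 124 ± 12.2 (SD, n = 3 each). The ranges of CDK6 and PBX3, of MEF2C and HOXA9 and of JMJD1C and MEIS1 overlapped with 22d. JMJD1C thus went from the lowest tested member to a level that overlapped that of MEIS1.

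The genes whose library profile lay nearest to HOXA9 were SLC12A4, EXOC3 and ADRA2C. Nearness was the root mean square difference in log2 change from the DMSO mean over the 6 libraries, among 10268 genes averaging 100 normalized counts or more, and it was 0.061, 0.062 and 0.067. For MEIS1 the nearest were MTMR12, FOXJ2 and HGSNAT, at 0.030, 0.032 and 0.033.

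The genes that form the fusion were not called. KMT2A held 3024, 2599 and 3142 normalized counts in the DMSO libraries against 3120.5, 2759 and 2719 in those with 22d, overlapping groups (log2 fold change -0.03, SE 0.11, limma adjusted p = 0.85). AFF1 held 3181, 2892 and 3181 normalized counts in the DMSO libraries against 2820.4, 2854 and 2629 in those with 22d (log2 fold change -0.16, SE 0.10, limma adjusted p = 0.19), with every treated library below every DMSO library. The signs of both turned under quantile normalization and scaling by library totals. Each count sums reads of the fusion transcript and of the unfused gene, and the table does not separate them.

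Of 14 tested genes of the MLL complex and its cofactors, 2 rose, 5 fell and 7 were not called. WDR5, a core subunit gene, held 4286, 4214 and 4189 normalized counts in the DMSO libraries against 1906, 2093 and 2157 in those with 22d (log2 fold change -1.04, SE 0.10, limma adjusted p = 2.1e-06). MEN1, which encodes menin, the protein that tethers MLL and its fusions to HOXA9 and MEIS1, held 3068, 3551 and 2655 normalized counts in the DMSO libraries against 1456, 1825 and 1865 in those with 22d (log2 fold change -0.85, SE 0.13, limma adjusted p = 0.00013). The groups did not overlap for WDR5 or MEN1. HCFC1, a host cell factor gene, fell by 1.02, and the histone methyltransferase genes KMT2C and ASH1L rose by 0.79 and 0.72. With scaling by library totals 3 of the 14 fell.

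Of 23 tested fusion partners and elongation factors, 3 rose, 6 fell and 14 were not called. DOT1L, the histone methyltransferase gene, held 8657, 10039.6 and 7165 normalized counts in the DMSO libraries against 5334, 5470.3 and 5608 in those with 22d (log2 fold change -0.64, SE 0.12, limma adjusted p = 0.00055). CDK9, the elongation kinase gene, fell by 0.54 and the PAF complex gene PAF1 by 0.67. AFF4, the scaffold gene of the super elongation complex, rose by 0.87, the PAF complex gene CTR9 by 0.50, and MLLT3, the gene of the fusion partner AF9, by 1.44 from 8 to 10 reads per DMSO library. With scaling by library totals 5 rose and 3 fell.

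Of 22 other tested genes reported as MLL fusion targets, 9 rose, 3 fell and 10 were not called, with a median log2 fold change of 0.18. MSI2, an RNA-binding protein gene of leukaemia stem cells, held 382, 408 and 476 normalized counts in the DMSO libraries against 932, 799 and 834 in those with 22d (log2 fold change 1.02, SE 0.13, limma adjusted p = 2.2e-05). The receptor gene FLT3 rose by 0.42 and SENP6, a SUMO protease gene, by 0.68. CDKN2C, which encodes an inhibitor of CDK4 and CDK6, held 2222, 2488 and 1744 normalized counts in the DMSO libraries against 686, 877 and 919 in those with 22d (log2 fold change -1.37, SE 0.15, limma adjusted p = 6.3e-06). Of these target genes 15 rose under quantile normalization and 16 with scaling by library totals. Over all 13297 genes tested 5278 rose with that scaling, against 3784 without it.

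Of 16 tested genes reported downstream of HOXA9 and MEIS1, 6 rose, 5 fell and 5 were not called, with a median log2 fold change of -0.05. HIF1A, the hypoxia factor gene, rose by 0.81. CCNE1, a cyclin gene of S phase entry, fell by 2.03 and IKZF1, a lymphoid transcription factor gene, by 0.58. With scaling by library totals 3 fell.

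**Figure D4:**
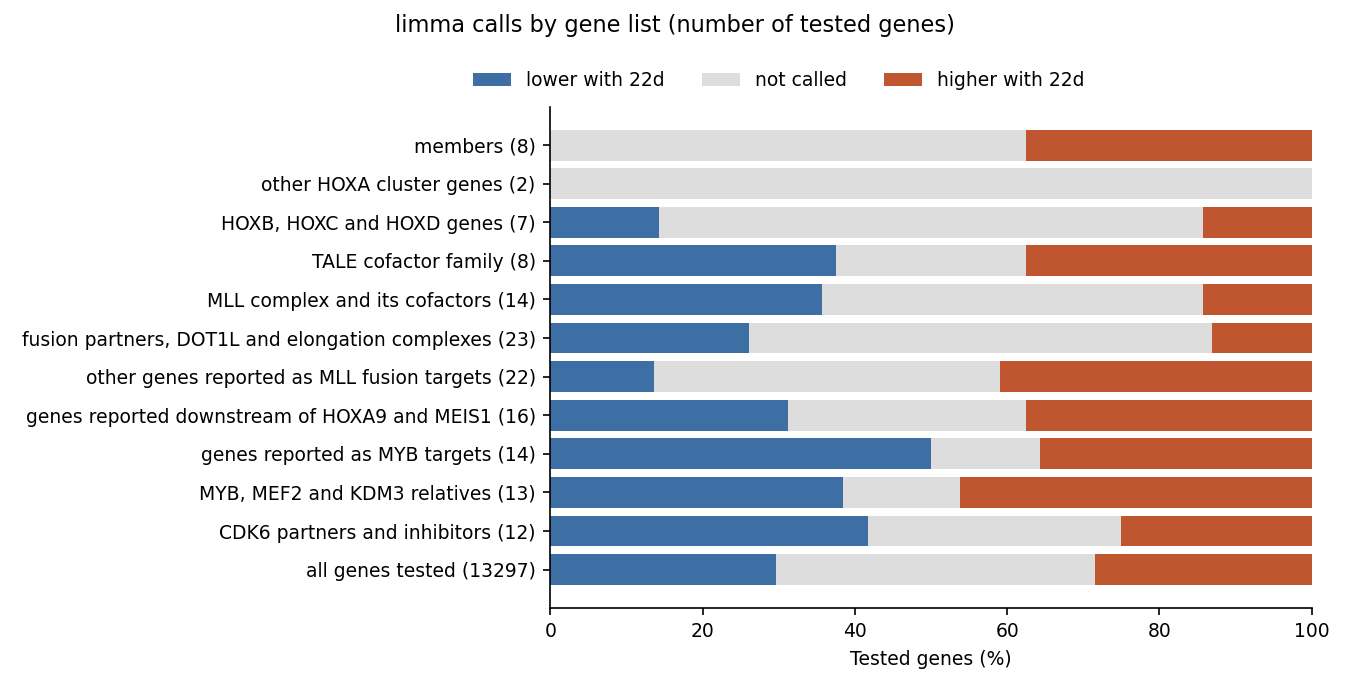
Share of tested genes in 10 gene lists beside the members, the members and all genes tested, in percent, that limma called lower with 22d (blue), did not call (grey) or called higher (orange), with the number tested in brackets. The 8 members hold no gene called lower, while 9 of the other lists drawn and all 13297 genes tested hold both directions.

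Across the 16 lists beside the members, 219 of 222 genes were in the table and 152 were tested. Of these 45 rose and 40 fell, together 55.9% against 58.0% of all genes tested.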

How the data were processed

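Gene counts of 6 RNA-seq libraries of MV4-11 cells, 3 with DMSO and 3 with 22d, were taken from 1 table. Per the submitters' processing notes, the authors used FastQC, cutadapt, STAR, HTSeq and DESeq2 with the hg38 build; versions, annotation, filters and the strand setting are not given in the sources used here. The authors deposited a normalized signal per gene and library, read counts divided by a size factor, together with log2 fold changes, a test score and p-values of their own comparison. Each library's values were whole multiples of what 1 read is worth (0.839 to 1.14), and 100% came out whole within 0.001, so that reads could be recovered. From the deposited signal, log2(value + 1) was tested with limma 3.58.1 (R 4.3.3, trended variance, no replicate block), over 13297 genes with a mean of at least 10, with Benjamini-Hochberg adjustment over all of them and a threshold of 0.05. Fold changes on that scale understate those of low genes.

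The alternatives were pseudocounts of 0.5 and 5, no filter and a mean of at least 50, quantile normalization, scaling by library totals, a replicate block, edgeR 4.0.16 (TMM) and DESeq2 1.42.0 on the recovered reads, the authors' deposited table, and each library left out in turn. Exon lengths and overlaps came from GENCODE 29, to which 23775 of 26364 genes matched by name, and promoters from RefSeq. The members and gene lists were chosen with earlier results of these data known. The genes named in each list of genes around the members include the called ones that rose most and fell most; other list genes could be named, and for HOXA9 and MEIS1 the 3 genes nearest in profile. Some genes of the lists are not reported here.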

Additional observations from a re-analysis of the deposited data

How the results depend on the processing

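Over the 16 alternatives run, 6682 to 8044 genes were called against 7718, and 76 to 93 genes of the lists against 85. Members called numbered 2 to 5 against 3, and none was called lower. Scaling by library totals called 5 of the 8 (JMJD1C, PBX3, MEF2C, MEIS1 and HOXA9), beside 8044 of all 13297 genes tested. Quantile normalization called 4 of the 8, beside 7591 of the 13297. With 1 library left out 2 to 3 members were called, beside 6682 to 7428 of all genes tested. Scaling by library totals made 65.6% of the calls higher, against 49.0%. The log2 fold change turned sign, with no call, as follows. Under quantile normalization MYB was at 0.19, CDK6 at 0.22, KMT2A at 0.25, AFF1 at 0.12 and JMJD1C-AS1 at -0.11. With scaling by library totals MYB was at 0.10, CDK6 at 0.14, KMT2A at 0.20, AFF1 at 0.065 and HOXA11 at 0.12. By edgeR KMT2A was at 0.00057. With 1 library left out KMT2A ranged from -0.108 to 0.029, HOXA11 from -0.278 to 0.029 and JMJD1C-AS1 from -0.171 to 0.363. The cause of these turns was not tested. No label says that replicate numbers pair the samples. The deviations of same-numbered libraries correlated at -0.03, -0.02 and -0.10, and those of differently numbered ones at -0.11 to 0.17. With deviations taken within groups of 3 libraries, these values cannot decide whether samples were paired. With the replicate block 7419 genes were called, 7281 of them shared with the fit without it, and 2 members, JMJD1C and PBX3, were called. HOXA5 and HOXA7 had too few reads for a change to be detectable, and the reason for their low counts was not tested.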

Other observations

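The ratio of HOXA10-AS to HOXA10 reads was 0.0772, 0.0794 and 0.101 with DMSO and 0.178, 0.125 and 0.142 with 22d, and every treated library lay above every DMSO library (exact two-sided permutation p = 0.10, the smallest that 3 against 3 libraries allow). It is the third of the ratios chosen after their values were seen.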
